A study of Mus musculus with 2 samples.

Results

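The 6 hairpins Mir17, Mir18, Mir19a, Mir20a, Mir19b-1 and Mir92-1 of the Mir17hg transcript, which carries the miR-17-92 cluster, were examined in embryonic mouse forebrain. They were found by matching the Ensembl identifiers of the count files to these symbols in GENCODE release M21, and all 6 had a row among the 1973 miRNA genes counted. The tissue was forebrain of healthy B6NCrl embryos at embryonic day 11.5 (E11.5), and RNA shorter than 30 nucleotides was sequenced. The only group held 2 biological replicates, each a pool of both sexes: replicate 1 from 109 embryos and replicate 2 from 88 embryos, under the same donor record. There was no treated or mutant group, so the comparisons run between hairpins within a library and between the replicate libraries.

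MicroRNAs (miRNAs) are short RNAs that guide Argonaute proteins to messenger RNAs, mainly through the seed, bases 2 to 8 from their 5′ end. Drosha cuts hairpins out of a long primary transcript, Dicer removes the loop, and usually 1 of the 2 arms (5p or 3p) is kept as the mature miRNA. The miR-17-92 cluster is a set of hairpins cut from 1 transcript; it is induced by MYC and E2F factors, is known from dividing progenitors and tumours, and in the embryonic mouse brain supports the expansion of neural progenitors. Its miRNAs are known to repress, among others, the cell cycle inhibitor Cdkn1a and the proapoptotic gene Bcl2l11 (miR-17 and miR-20a). The 106a-363 cluster on chromosome X and the 106b-25 cluster within Mcm7 on chromosome 5 are paralogs with related hairpins.

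The mature sequences from the arm usually retained show why the 6 hairpins fall into 4 seed groups. They are from RefSeq on GRCm38.p6, the assembly that mm10 names, 5′ to 3′, with the seed in capitals. All lie on the plus strand of chromosome 14.
miR-17-5p: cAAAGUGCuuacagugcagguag
miR-18a-5p: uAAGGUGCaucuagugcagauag
miR-19a-3p: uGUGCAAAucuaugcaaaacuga
miR-20a-5p: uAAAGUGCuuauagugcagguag
miR-19b-3p: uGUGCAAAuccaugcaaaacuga
miR-92a-3p: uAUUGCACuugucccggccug
Mir17 and Mir20a share the seed AAAGUGC, and their mature sequences differ by the substitutions C1U and C12U, counted from the 5′ end of the Mir17 sequence. Mir18 has its own seed AAGGUGC. Mir19a and Mir19b-1 share GUGCAAA and differ by U11C alone. Mir92-1 carries AUUGCAC. Paralogs are shown for their closeness to these sequences, which decides whether a read can be assigned to 1 hairpin.
miR-106a-5p: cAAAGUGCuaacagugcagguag
miR-20b-5p: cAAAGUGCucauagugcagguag
miR-106b-5p: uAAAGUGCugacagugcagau
miR-93-5p: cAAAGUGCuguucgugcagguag
miR-18b-5p: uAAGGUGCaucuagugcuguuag
miR-363-3p: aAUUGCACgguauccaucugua
miR-25-3p: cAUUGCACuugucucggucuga
The Mir106a sequence differs from that of Mir17 by U10A alone, that of Mir20b from Mir20a by U1C and U10C, and that of Mir18b from Mir18 by A18U and A20U. Each of these mature sequences is found in a single hairpin of the RefSeq table of 1005 hairpins.

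For Mir19b-1 and Mir92-1 the mature sequence itself has a copy on chromosome X. The hairpins are printed with the longest stretch they share with that copy in capitals, because a read lying wholly within it cannot be placed and is not counted for either gene.
Mir19b-1 (chr14:115044305-115044391, plus strand): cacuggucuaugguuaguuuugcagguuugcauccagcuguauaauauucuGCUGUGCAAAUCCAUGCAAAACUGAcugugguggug
Mir19b-2 (chrX:52741983-52742066, minus strand): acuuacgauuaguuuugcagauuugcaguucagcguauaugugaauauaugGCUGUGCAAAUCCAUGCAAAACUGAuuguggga
Mir92-1 (chr14:115044427-115044506, plus strand): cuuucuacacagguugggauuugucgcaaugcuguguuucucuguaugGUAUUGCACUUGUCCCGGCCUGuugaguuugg
Mir92-2 (chrX:52741838-52741928, minus strand): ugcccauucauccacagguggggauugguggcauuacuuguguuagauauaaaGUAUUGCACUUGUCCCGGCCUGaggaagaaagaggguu
The miR-19b-3p sequence of 23 bases is the same in Mir19b-1 and Mir19b-2, with 2 further identical bases before it, and the hairpins first differ after its last base, at C24U. The miR-92a-3p sequence of 21 bases is the same in Mir92-1 and Mir92-2, with 1 further identical base before it, and they differ at U22A, so that a read ending 1 base later fits only 1 of the pair. Mir17, Mir18, Mir19a and Mir20a share no stretch of 20 bases with another hairpin of the table. Levels of Mir19b-1 and Mir92-1 are therefore of reads that fit 1 place and can be too low by an unknown amount. Whether any such reads came from the other copy of the pair was not tested. How reads of miR-19a-3p were placed was not examined, so the level of Mir19a too is that of counted reads only. The counts are per hairpin gene and do not separate its 5p and 3p arms. Places outside annotated hairpins and transcripts were not searched.

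The gene strand gathered 1281201 counts in replicate 1 and 1297647 in replicate 2 over all miRNA genes, and levels are these counts scaled to 1000000 per library (CPM). Levels are thus of reads, and how evenly library preparation recovered different sequences was not tested. Reads that map to several places, which are not in the gene counts, made up 41.7% of the mapped reads in replicate 1 and 39.1% in replicate 2. Ranks and shares are therefore among counted reads, and those of genes without copies can be too high by an unknown amount. Among 9 neural marker genes, 8 reached 2 CPM in each library. Their summed level was 39822 CPM in replicate 1 and 34269 CPM in replicate 2, of which Mir92b, which shares its seed with Mir92-1, gave 18428 and 15730 CPM. The 3 Mir124a genes and Mir9-2 had 24.7 CPM or less, and Mir9-3 had 523 and 435 CPM. Mir124a and Mir9 are each a set of gene copies. Reads that map to several copies are not counted, so these levels can be too low by an unknown amount. Mir126a of endothelium had 34601 and 30323 CPM. Mesenchymal markers summed to 14631 and 13228 CPM, epithelial markers to 5148 and 5078 CPM, leukocyte markers to 739.9 and 744 CPM, erythroid markers to 581 and 336 CPM, and Hox cluster markers to 195 and 72.4 CPM, in replicates 1 and 2. The liver marker Mir122 had 21.1 and 6.17 CPM. In striated muscle, Mir1a-1 and Mir133a-1, both with near copies, were at 0, and Mir206 had 7.02 and 3.08 CPM. The muscle genes Mir208a and Mir208b, outside the marker lists, were higher. In replicates 1 and 2, Mir208a had 39.8 and 20.8 CPM and Mir208b 191 and 96.3 CPM. In pooled tissue, fewer cells of a type and less RNA per cell cannot be told apart.

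Together the 6 hairpins took 11.7% ± 1.23 of all miRNA gene counts (SD, n = 2, as for every ± here). Replicate 1 gave a share of 10.8% and replicate 2 one of 12.5%, with 95% Wilson intervals of 10.7 to 10.8% and of 12.5 to 12.6%. All intervals and limits given cover counting error only and take each read as independent. PCR copies are not independent molecules, so the intervals can be too narrow. Mir17, the first hairpin, held 55.8% ± 1.36 of the cluster's own counts, Mir20a 23.8% ± 0.713, Mir18 13.2% ± 0.432 and Mir92-1 7.12% ± 1.64. The miR-19 hairpins were almost missing from this sum, with 0.122% ± 0.00479 for Mir19a and 0.0395% ± 0.00548 for Mir19b-1.

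Along the transcript the levels did not follow the order of the hairpins. Mir17hg (ENSMUSG00000089726) runs on the plus strand of chromosome 14 from 115042879 to 115046727 in mm10, and all 6 hairpins lie in an exon of its single annotated transcript, within 836 bases. Mir17 (ENSMUSG00000065508, 115043671 to 115043754) reached 59115 CPM in replicate 1 and 71083 CPM in replicate 2, rank 2 of all genes by counted reads in both. After a gap of 96 bases, Mir18 (ENSMUSG00000065403, 115043851 to 115043946) had 14568 and 16160 CPM, ranks 18 and 14. Both libraries thus placed the second hairpin well below the first.

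Mir19a (ENSMUSG00000065416, 115044000 to 115044081), 53 bases further on, had 164 and 204 counts in replicates 1 and 2, or 128 CPM (exact Poisson interval 109 to 149) and 157 CPM (136 to 180.3). Mir20a (ENSMUSG00000065442, 115044157 to 115044263) follows after 75 bases with 25084 CPM in replicate 1 and 30406 CPM in replicate 2, ranks 7 and 6. Mir19b-1 (ENSMUSG00000076256, 115044305 to 115044391) had 60 and 58 counts, or 46.8 CPM (35.7 to 60.3) and 44.7 CPM (33.9 to 57.8). Both miR-19 hairpins thus stood low in counted reads in both libraries, far below every other hairpin of the transcript. Mir92-1 (ENSMUSG00000076062, 115044427 to 115044506), the last hairpin, had 8931 and 7474 CPM, ranks 33 and 36. It was the single hairpin among the 4 abundant ones with the higher value in replicate 1.

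**Figure D1:**
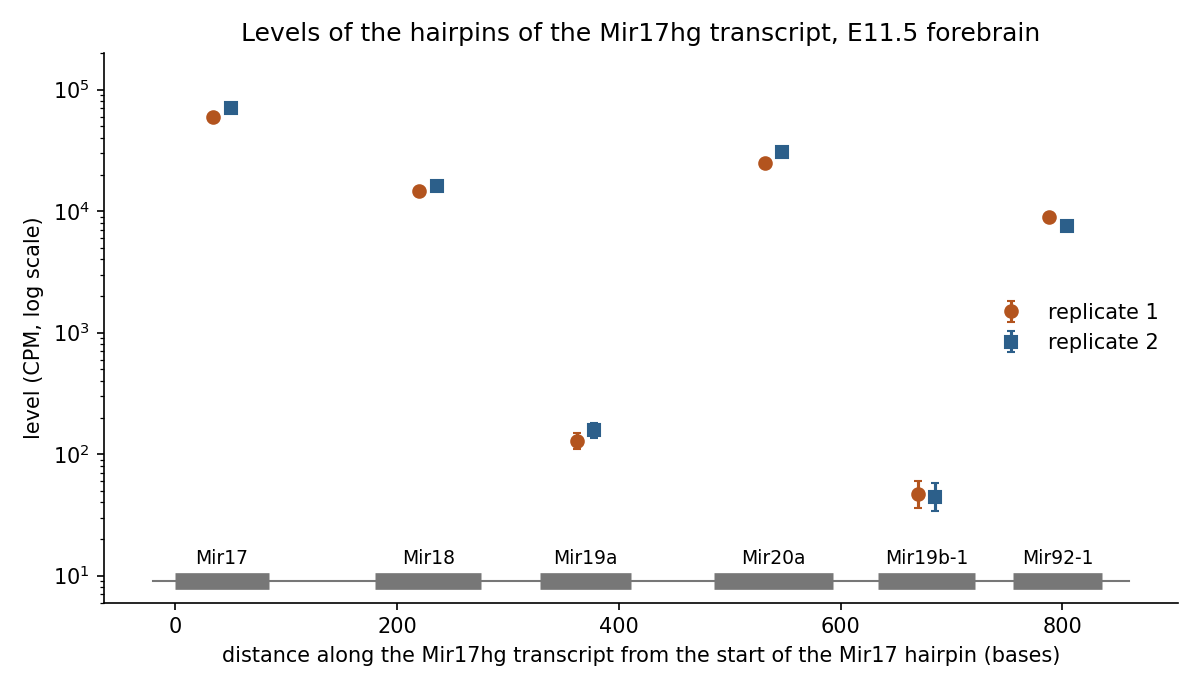
Level of each Mir17hg hairpin in CPM (log axis) against its distance in bases from the start of the Mir17 hairpin, for replicate 1 (circles) and replicate 2 (squares), with exact Poisson intervals of 95% and the hairpins drawn to scale as grey boxes. Mir17, Mir18, Mir20a and Mir92-1 lie between 7474 and 71083 CPM, and Mir19a and Mir19b-1 between 44.7 and 157 CPM.

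The order of levels, Mir17, Mir20a, Mir18, Mir92-1, Mir19a and Mir19b-1, was the same in both libraries. Mir17 exceeded Mir20a by a log2 ratio of 1.24 in replicate 1 and 1.23 in replicate 2 (mean 1.23 ± 0.01). Mir20a exceeded Mir18 by 0.85 ± 0.09, and Mir18 exceeded Mir92-1 by 0.71 and 1.11 (0.91 ± 0.29). Mir92-1 stood above Mir19a by 6.12 and 5.57 (5.84 ± 0.39), a 57.4-fold difference, and Mir19a above Mir19b-1 by 1.44 and 1.81 (1.62 ± 0.26). Each of these 5 differences had the same sign in both libraries and exceeded 2 SD. The SD does not cover uneven recovery of sequences that both libraries share, so these are ratios of reads. The position of Mir92-1 and Mir19b-1 in this order holds for reads that fit 1 place. From highest to lowest, the hairpins of the transcript spanned a log2 ratio of 10.46 ± 0.24.

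Hairpin lengths range from 80 bases for Mir92-1 to 107 bases for Mir20a, and the order was the same per length. A read covers a whole mature miRNA, so counts per hairpin are the usual scale and values per length an alternative. Mir17 had 77499 ± 10075 CPM per 100 bases of hairpin, Mir20a 25929.9 ± 3517, Mir18 16004 ± 1172, Mir92-1 10253 ± 1288, Mir19a 174 ± 25.2 and Mir19b-1 52.6 ± 1.74. On the log2 scale, the difference of Mir17 from Mir20a became 1.58 ± 0.01 per base, and that of Mir20a from Mir18 0.69 ± 0.09. The hairpins were alike in base composition, with 43.7% G and C in Mir19b-1 and 47.5% in Mir92-1 as the extremes. RNAfold gave them minimum free energies from -38.7 kcal/mol for Mir19a to -29.2 kcal/mol for Mir18. That of Mir19b-1 was -37.8 kcal/mol. The mature miR-19a-3p has 34.8% G and C and miR-19b-3p 39.1%, beside 39.1% in miR-20a-5p, 43.5% in miR-18a-5p, 47.8% in miR-17-5p and 57.1% in miR-92a-3p. Whether fold energy or base composition bears on the levels was not tested.

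By seed, the Mir17hg hairpins carried most of the counts for 3 of the 4 groups. For the miR-17 seed, Mir17 and Mir20a summed to 92844 ± 12226 CPM, 66.6% ± 1.59 of all 7 genes with this seed and a row. For the miR-18 seed, Mir18 gave 96.2% ± 0.0703 of the sum with Mir18b. For the miR-19 seed, Mir19a and Mir19b-1 gave 90.9% ± 2.36 of a sum of 207 ± 15.7 CPM. The counted level of this whole seed group was thus low, with Mir19b-2 at 21.1 CPM in replicate 1 and 16.2 CPM in replicate 2. Reads of miR-19b-3p that fit both Mir19b-1 and Mir19b-2 are not in this sum, so it can be too low by an unknown amount. For the miR-92 seed, Mir92-1 gave 24.9% ± 0.693 of 7 genes. Mir92b, a brain-enriched gene outside these clusters, stood above it in both libraries with 18428 and 15730 CPM, against 8931 and 7474 CPM for Mir92-1. The levels of Mir92-1 and Mir92-2 are of reads that fit 1 place. This share and the order against Mir92b therefore hold for counted reads only.

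**Figure D2:**
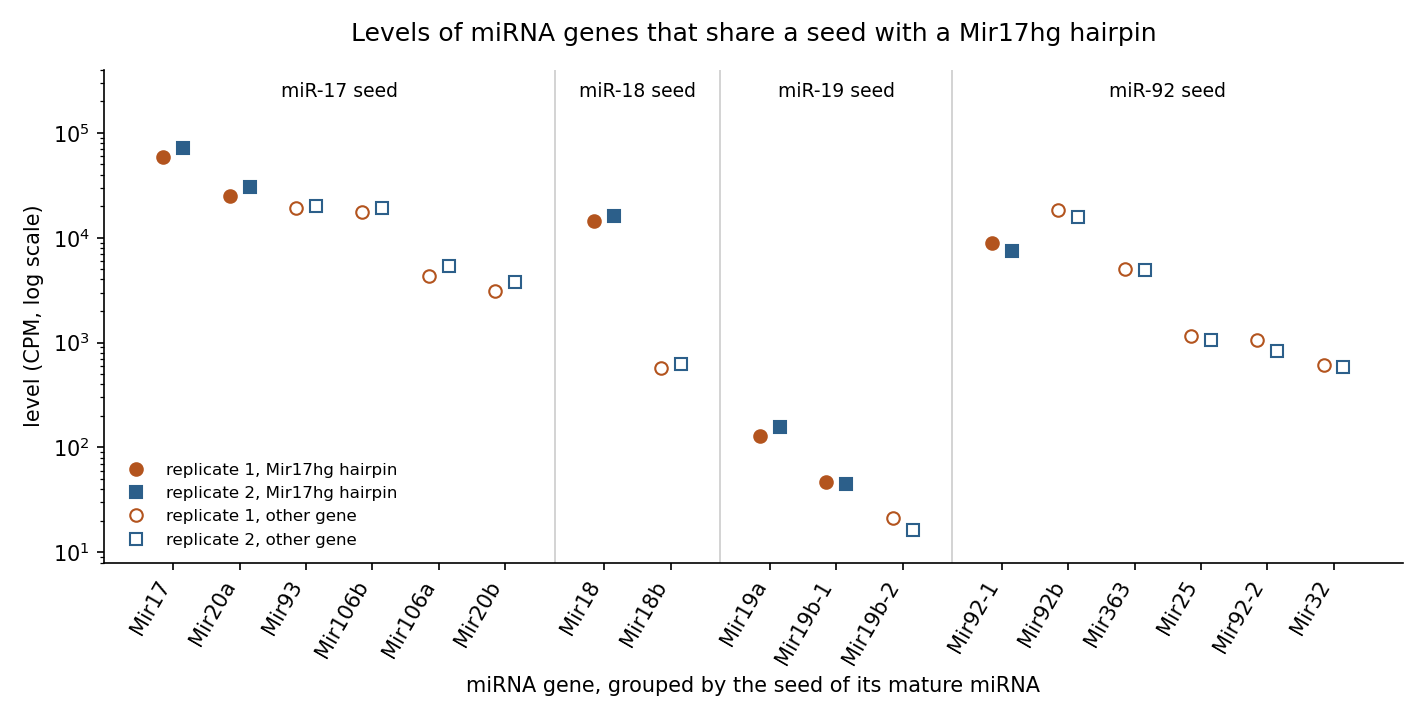
Level in CPM (log axis) of miRNA genes with 10 counts or more that share a seed with a Mir17hg hairpin, in replicate 1 (circles) and replicate 2 (squares), filled for Mir17hg hairpins and open for other genes. The genes of the miR-19 seed lie between 16.2 and 157 CPM, below every gene drawn for the other seeds.

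The 5 Mir17hg hairpins set against paralogs were higher than them in both libraries, and Mir19a was not compared. Mir17 stood above Mir106a by a log2 ratio of 3.76 ± 0.05, with 59115 and 71083 CPM for Mir17 against 4272 and 5384 CPM for Mir106a. Mir20a stood above Mir20b by 3.01 ± 0.01, Mir18 above Mir18b by 4.67 ± 0.03 and Mir92-1 above Mir92-2 by 3.12 ± 0.04. The ratio of Mir19b-1 to Mir19b-2 was smaller, 1.29 ± 0.22, and rests on 60 against 27 counts in replicate 1 and 58 against 21 in replicate 2. Relative to the chromosome X cluster, the hairpins thus differed by unequal factors, from 2.45-fold for Mir19b-1 to 25.5-fold for Mir18. Whether reads that fit both copies change the ratios of Mir19b-1 and Mir92-1 was not tested.

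Against the 106b-25 cluster, Mir17 exceeded Mir106b by 1.82 ± 0.11 and Mir92-1 exceeded Mir25 by 2.88 ± 0.09 on the log2 scale. Mir20a was nearest to its paralog Mir93, with 25084 and 30406 CPM for Mir20a against 19349 and 20246 CPM for Mir93, a log2 ratio of 0.48 ± 0.15. That ratio exceeded 2 SD. On the alternative scale per hairpin base it was 0.09 in replicate 1 and 0.30 in replicate 2 (0.20 ± 0.15), which did not exceed 2 SD. In all, the 106a-363 hairpins took 1.48% ± 0.107 of the miRNA gene counts and the 106b-25 hairpins 3.93% ± 0.149. Mir363, which has no counterpart on the Mir17hg transcript, had 5042 and 4976 CPM.

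Counts on the opposite strand were 0 for all 6 hairpins in both libraries, whereas 3.61% of the counts of all miRNA genes lay on that strand in replicate 1 and 3.22% in replicate 2. For Mir17, 0 of 75738 counts allows an opposite-strand share of up to 0.00396% in replicate 1 (3 counts of the total). For Mir19b-1, 0 of 60 counts allows up to 5%, so little can be said of it. The 9 paralog hairpins also had 0 counts on that strand.

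Between the replicate libraries, the abundant hairpins of the transcript did not move together. Mir17, Mir20a and Mir18 were lower in replicate 1 and Mir92-1 was higher, by the two-sided exact binomial test against library totals with Benjamini-Hochberg adjustment over 398 genes with 10 counts or more (adjusted p of 1.21e-23 or less for each of the 4). The log2 ratio of replicate 1 to replicate 2 was -0.27 for Mir17 (95% interval -0.28 to -0.25), -0.28 for Mir20a (-0.30 to -0.26), -0.15 for Mir18 (-0.18 to -0.12) and 0.26 for Mir92-1 (0.22 to 0.30). Mir19a, at -0.30 (-0.60 to 0.01), and Mir19b-1, at 0.07 (-0.48 to 0.61), did not pass, with adjusted p = 0.147 and 0.963 in the same exact test. The test compares 2 libraries of 1 group and covers counting error alone. The values of Mir92-1 and Mir19b-1 are of reads that fit 1 place. Whether the share of such reads differed between the libraries was not tested.

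Of the 6 hairpins, 4 were called, 1 higher and 3 lower in replicate 1, with a median log2 ratio of -0.21. Over all 398 genes tested, 113 or 28.4% were called, 82 or 20.6% higher and 31 or 7.79% lower, with a median of 0.07. With TMM scaling the split over all genes was 52 higher and 54 lower, and with DESeq2 size factors 61 and 49. Abundant genes pass a test of counting error at small differences, and 0 of the 6 hairpins differed by 2-fold or more. The edgeR exact test, with a biological coefficient of variation of 10.3% estimated from the same 2 libraries, called 0 of the 6, with 0 of the 6 at an unadjusted p under 0.05, and 8 of the 398 genes.

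Set against Mir17, which removes the scaling, Mir20a kept its proportion: 42.4 counts per 100 of Mir17 in replicate 1 and 42.8 in replicate 2, a log2 shift of -0.01 (-0.04 to 0.01). Mir92-1 had 15.1 counts per 100 of Mir17 in replicate 1 and 10.5 in replicate 2, a shift of 0.52 (0.48 to 0.56). Mir18 lay between them with 24.6 and 22.7 per 100, a shift of 0.12 (0.08 to 0.15). The share of Mir92-1 within the cluster was accordingly 8.28% in replicate 1 and 5.96% in replicate 2. This share and the shift of Mir92-1 are likewise of reads that fit 1 place.

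For the miR-17 and miR-92 seeds, every called gene on another chromosome differed in the same direction as the Mir17hg hairpins of that seed. All 6 tested genes of the miR-17 seed were lower in replicate 1 and called, from -0.33 for Mir106a to -0.07 for Mir93, and Mir20b stood at -0.27. Over all 398 genes, 7.79% were called lower and 20.6% higher. These 6 genes are all among the 112 genes of 1000 CPM or more, where small differences pass the test. Of those 112 genes, 42 had a ratio below 0, called or not. All 6 remained lower and called in the binomial test with TMM scaling, DESeq2 size factors, unstranded counts or totals without the 6 hairpins. The edgeR exact test called none of the 6, nor the 3 called genes of the miR-92 seed, each with an adjusted p of 1. Of the 6 tested genes of the miR-92 seed, 3 were called, all higher in replicate 1: Mir92-1 at 0.26, Mir92-2 at 0.32 and Mir92b at 0.23. The others were Mir25 at 0.13, Mir32 at 0.07 and Mir363 at 0.02. Mir363 turned negative with TMM scaling, DESeq2 size factors and totals without the 6 hairpins, and Mir32 with TMM scaling. The ratios of Mir92-1 and Mir92-2 are of reads that fit 1 place. Mir18 and Mir18b stood at -0.15 and -0.11, and of these only Mir18 was called. Genes of a family are not independent, and whether the seed groups differ was not tested.

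**Figure D3:**
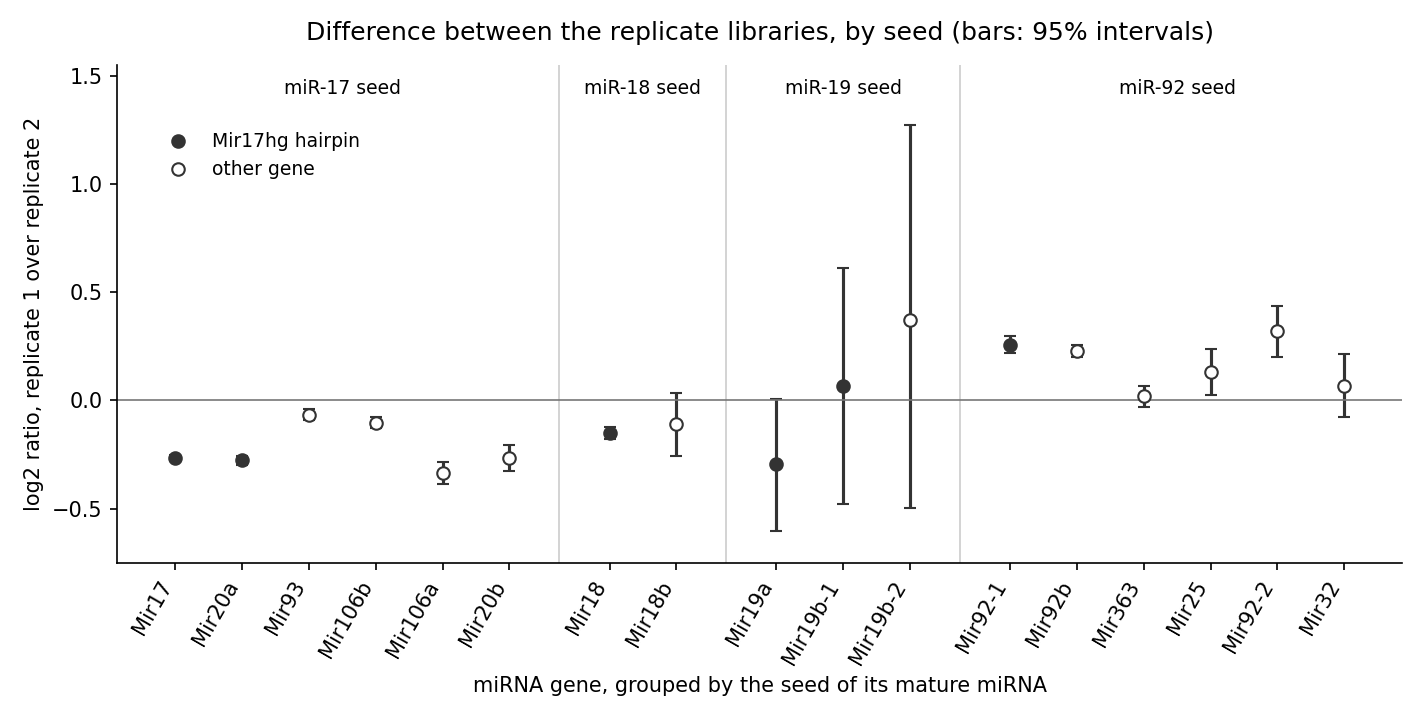
Log2 ratio of replicate 1 to replicate 2 for each gene with 10 counts or more that carries a seed of a Mir17hg hairpin. Mir17hg hairpins are filled and other genes with the same seeds are open. Bars are exact 95% intervals of counting error. The 6 genes of the miR-17 seed lie between -0.33 and -0.07, and the 6 of the miR-92 seed between 0.02 and 0.32.

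Other genes also moved between the libraries, and their part in these differences was not tested. The neural markers summed higher in replicate 1, as given above, with Mir92b at a log2 ratio of 0.23, Mir149 at 0.23 and Mir137 at 0.26, but Mir153 at -0.07 and Mir124a-2 at -0.58. Of the erythroid markers, Mir451a stood at 1.01 and Mir144 at -0.06. In the same ratio, Mir10a and Mir10b of the Hox clusters were at 1.52 and 1.37. Among 112 genes of 1000 CPM or more, log2 ratios ran from -0.38 to 0.53, and by size without sign Mir20a ranked 9, Mir17 12, Mir92-1 14 and Mir18 42. Outside the 6 hairpins, the 3 genes nearest to Mir17 in this ratio, over 2 libraries only, were Mir302a at -0.27, Mir20b at -0.27 and Mir302b at -0.29. Mir302a and Mir302b belong to a cluster on chromosome 3 known from embryonic stem cells. These libraries hold no contrast in which such likeness could be followed further.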

How the data were processed

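The authors deposited raw counts per miRNA gene for each library, for both strands together, the strand of the gene and the opposite strand, from reads aligned to mm10 and counted on GENCODE M4, per the text files deposited with them. Which aligner and counting program made them is not given in the labels or headers. The 4 rows that name no gene, 1 of them for reads that map to several places, were kept out of totals and tests; they took 67.6% of the reads in replicate 1 and 62.1% in replicate 2. The sense counts were used, scaled to CPM. Nothing in the labels ties the replicates to separate litters or days, so the spread between them may be partly technical.

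Symbols and positions came from GENCODE M21, and sequences from RefSeq on GRCm38.p6. Mature sequences were found for all 6 hairpins and searched in the other RefSeq hairpins and in GENCODE transcripts. Levels are given with exact Poisson intervals, shares with Wilson intervals and ratios with exact Clopper-Pearson intervals (Woolf intervals for shifts against Mir17), after adding 0.5 counts for log2 ratios. The binomial test, run across all genes with 10 counts or more, used a threshold of 0.05. It was tested on simulated counts that held counting error only, which cannot show how it behaves with variation between pools.

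Named are the 6 hairpins, 9 paralogs, the 3 genes outside the 6 hairpins nearest to Mir17 in the ratio of the libraries among genes of 1000 CPM or more, and markers. Mir32 was named for its miR-92 seed, and Mir208a and Mir208b as further muscle genes, after their values were seen. The hairpins and lists were chosen with earlier results of these data known. Alternatives covered the strand column, denominator, scaling, filter, test, added count, hairpin length and each replicate. Tools were edgeR 4.0.16, DESeq2 1.42.0, R 4.3.3, Python 3.11.15, scipy 1.17.1 and ViennaRNA 2.7.2.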

Additional observations from a re-analysis of the deposited data

How the results depend on the processing

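Of 129 results recomputed under an alternative, 112 kept their direction and, where tested, their side of the threshold, or moved by less than the spread between the libraries. Leaving out a replicate always moves the mean of the pair by less than their SD, so only a change of sign could show there. Ratios between hairpins could not change in unstranded counts, because these hairpins had no opposite-strand counts. The number kept thus includes results that could not fail. With all mapped reads in place of the gene counts as denominator, the share of the 6 hairpins was 5.65%, against 11.7%, since the denominator also holds reads that map to several places or outside miRNA genes. Per hairpin base, the log2 ratio of Mir17 over Mir20a was 1.58 and that of Mir20a over Mir18 was 0.69. The number of genes that differ between the replicates was 113 by the exact binomial test, 11 with a 2-fold minimum and 8 with the edgeR exact test. The log2 ratio of Mir19b-1, not called, reversed to -0.0047 with TMM scaling, which shifted the median of all genes by -0.07. The other moved values were levels of single hairpins under another denominator, per length or in unstranded counts. Without replicate 1 the share was 12.5% and without replicate 2 it was 10.8%. No paired analysis was possible because the series has a single group. At 60 and 58 counts, Mir19b-1 cannot show differences between the libraries inside its interval of -0.48 to 0.61.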

Other observations

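The range of levels within the Mir17hg transcript was set beside that of other groups of neighbouring miRNA genes, a comparison chosen after the data were seen and given with no test. Genes on 1 strand and at most 10 kb apart formed 9 groups with 4 or more genes counted in both libraries. The Mir17hg group held the most counts, with 107873 CPM in replicate 1 and 125325 CPM in replicate 2. Its log2 ratio of highest to lowest gene, 10.5 without an added count, was rank 4 of 9. The widest range, 12.6, was in the group led by Mir487b on chromosome 12, which has 32 genes with counts, and the group of Mir363 on chromosome X had 8.14. Without hairpins that share 20 bases with another, which removes Mir19b-1 and Mir92-1, the Mir17hg range was 8.84, set by Mir17 and Mir19a, or rank 3 of 8.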
